A study of Mus musculus with 4 samples.

Results

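Collagens and the genes that mark fibroblasts of the meninges were measured in the prelimbic cortex of adult male mice. The set was defined by gene symbol: every collagen chain gene, together with the proteoglycan genes Dcn, Lum, Ogn, Fmod and Bgn and the meningeal genes Igfbp2, Aldh1a2, Slc6a13, Crabp2 and Slc22a6. It held 52 genes, 42 of them collagens, out of 18193 genes with a probe set assigned to a single gene symbol. These 52 genes were read by 102 probe sets, and the brightest probe set on average over the 4 arrays stood for the gene, with the others as a check. The collagen genes Col6a6, Col21a1 and Col28a1 were not analysed here.

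RNA came from tissue punches of the medial prefrontal cortex taken on postnatal day 90 and was measured on Affymetrix expression arrays, which read the 3′ part of transcripts. A group of 2 arrays came from male mice with prenatal exposure to fluoxetine, an antidepressant that blocks serotonin reuptake, and the other group of 2 arrays came from untreated male mice. Each pair is described in the series as biological duplicates. The sources used here give no strain, dose or days of exposure, no litter of origin, and no statement on pooling of mice. The p-values below measure the spread between these arrays.

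Collagens are built from chains that wind around each other into a stiff helix. Fibrillar collagens form the cables of connective tissue, type IV, XV and XVIII collagens belong to basement membranes, and other types decorate fibrils, form networks or span the cell membrane. Small leucine-rich proteoglycans such as decorin bind collagen fibrils and set their spacing. In the brain most fibrillar collagen is made by fibroblasts of the meninges and around larger vessels, while basement membrane collagen is laid down by cells of the vessel wall. Meningeal fibroblasts also make retinoic acid and carry solutes across the arachnoid barrier.

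Values are log2 intensities as deposited, and those of a group are given in the order replicate 1, replicate 2. A difference is the fluoxetine mean minus the untreated mean on the log2 scale, with the standard error (SE) of the linear model fitted by limma across all genes. The median level of all genes was 7.87, and levels of different genes are compared only with this median, because probe sets differ in how strongly they bind. The 4 arrays had median intensities of 6.44 to 6.5 over all probe sets and correlated at 0.996 to 0.997, within groups as well as between them. All 24 probe sets for the poly-A control transcripts, which are not mouse transcripts and are added to RNA as a check of labelling, were higher with fluoxetine, by a median of 0.24, and the part of this shift in the results below was not tested. With 2 arrays against 2, an exact two-sided permutation test cannot give a p below 0.333.

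No collagen or meningeal gene differed between the groups after adjustment over all genes: the lowest adjusted p by limma was 0.696 among the 52 genes and 0.335 among all genes, of which 0 of 18193 (0%) passed 0.05. At an unadjusted p below 0.05, 7 of the 52 genes passed and 45 did not, where 1266 of all genes passed (6.96%). Col1a2, Col6a1, Col8a2 and Dcn were the 4 higher with fluoxetine, where 3.45% of all genes were higher by this rule. Col10a1, Col13a1 and Col22a1 were the 3 lower, where 3.51% of all genes were lower. Both fluoxetine arrays stood above both untreated arrays for 11 of the 52 genes (15.5% of all genes) and below both for 13 (22.3% of all genes), and the groups overlapped for the remaining 28. The median difference of the 52 genes was 0.0056, and that of all genes was −0.0195.

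**Figure D1:**
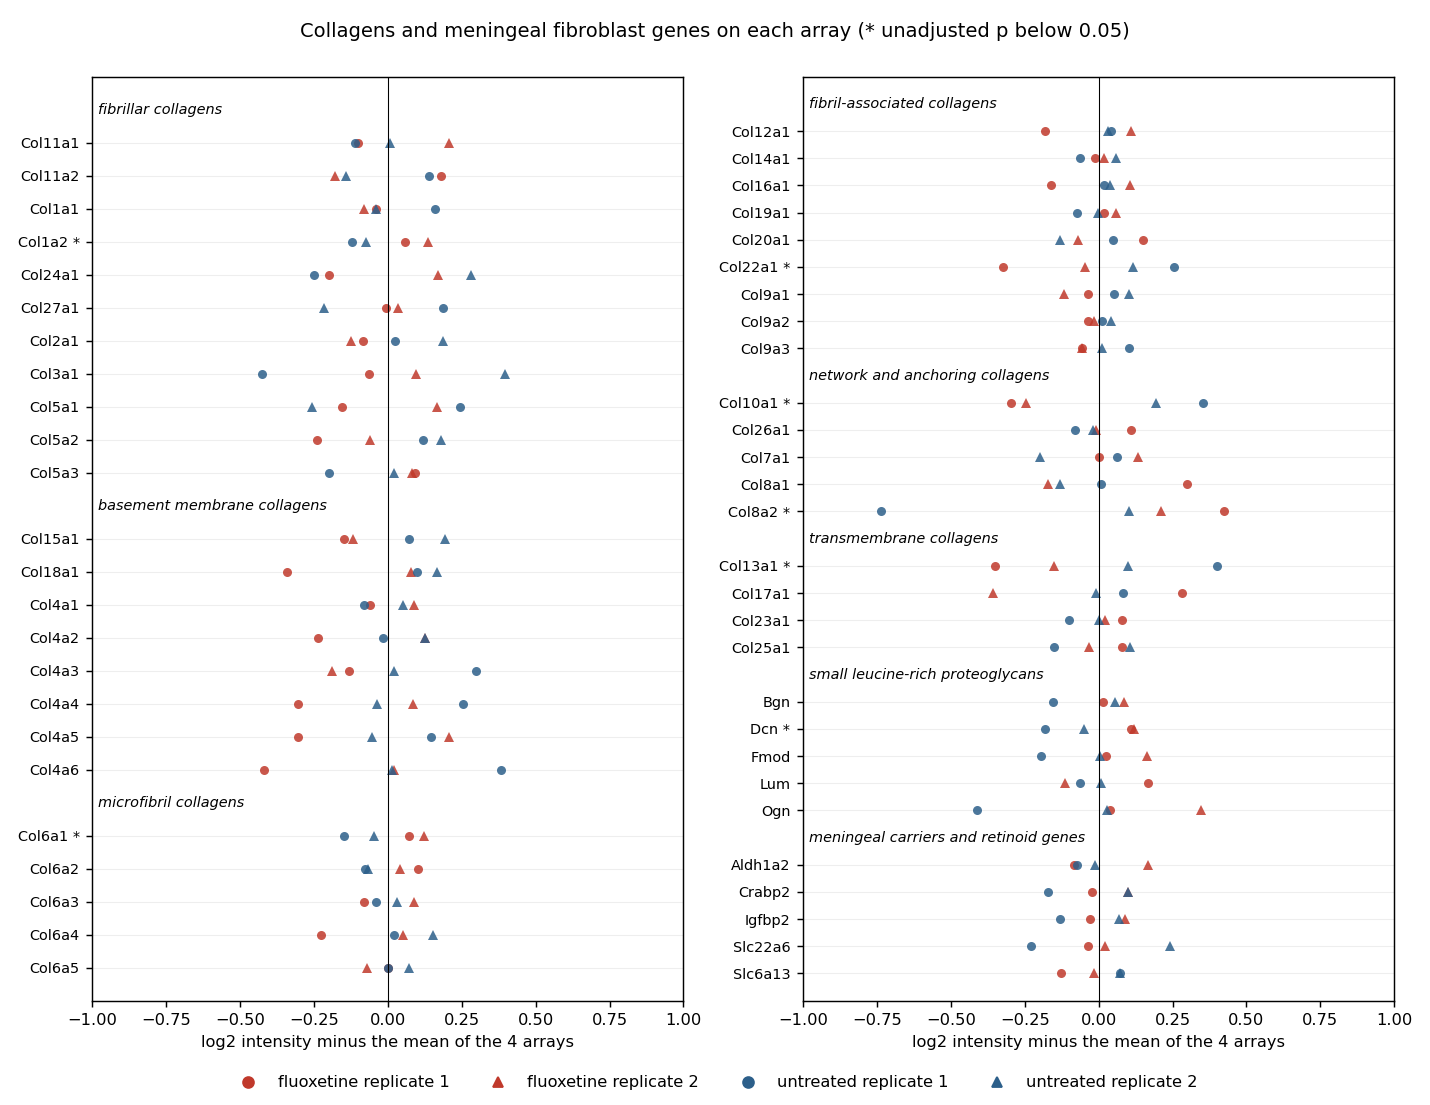
Log2 intensity of each of the 52 genes on each of the 4 arrays, minus the gene's mean over the arrays, in rows grouped by role; red marks fluoxetine, blue marks untreated, circles replicate 1 and triangles replicate 2. For 28 of the 52 genes the colours overlap, and the widest spread within a group among the 52 genes is that of Col8a2 and Col3a1 on the untreated arrays.

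Promoter sequence is shown for the genes past the unadjusted threshold, since they are those with the smallest p in the set, with their transcript values below. The letters are the 120 bases before the annotated transcript start, 5′ to 3′ on the gene's strand, from RefSeq for assembly GRCm38.p6. Capitals mark matches on either strand to TATAAA, the core promoter element bound by the TATA-binding protein. They also mark CCAAT, the element bound by nuclear factor Y, and GGGCGG, the GC box bound by Sp1 and related factors. The regions are chr6:4505498-4505617 (plus strand) for Col1a2, chr10:76726045-76726164 (minus strand) for Col6a1, chr4:126286674-126286793 (plus strand) for Col8a2, chr10:34389861-34389980 (plus strand) for Col10a1 and chr10:61979109-61979228 (minus strand) for Col13a1. Dcn and Col22a1 had no entry.
Col1a2: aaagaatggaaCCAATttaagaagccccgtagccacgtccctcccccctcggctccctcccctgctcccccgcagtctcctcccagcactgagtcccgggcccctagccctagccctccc
Col6a1: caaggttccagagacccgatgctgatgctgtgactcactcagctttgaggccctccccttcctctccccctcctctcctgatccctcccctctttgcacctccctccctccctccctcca
Col8a2: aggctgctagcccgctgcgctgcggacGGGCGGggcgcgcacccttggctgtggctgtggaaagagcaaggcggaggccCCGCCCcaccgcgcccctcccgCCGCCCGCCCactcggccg
Col10a1: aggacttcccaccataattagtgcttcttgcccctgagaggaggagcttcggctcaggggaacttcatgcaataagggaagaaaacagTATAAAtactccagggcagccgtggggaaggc
Col13a1: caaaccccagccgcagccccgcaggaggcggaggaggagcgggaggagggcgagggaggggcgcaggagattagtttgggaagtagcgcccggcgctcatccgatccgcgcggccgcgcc
Among the genes higher with fluoxetine, Col1a2 carried 1 CCAAT match, Col8a2 carried 4 GC box matches, of which a pair overlapped, and Col6a1 carried none of the motifs. Among the lower genes, Col10a1 carried 1 TATAAA match and Col13a1 carried none. Over 32851 promoter windows of this length in the table, 6.34% held TATAAA, 21.3% held CCAAT and 26.5% held GGGCGG. The 46 windows that belong to 40 genes of the set held them in 6.52%, 19.6% and 43.5%. A match is a run of letters and was not tested as a binding site.

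Fibrillar collagens were represented by 11 genes, with a median difference of 0.0084. By the unadjusted threshold 1 was higher (3.45% of all genes) and none was lower (3.51%). Col1a2, the alpha-2 chain of type I collagen and the only fibrillar gene above the median level, read 8.60 and 8.68 on the fluoxetine arrays and 8.42 and 8.47 on the untreated arrays. The groups did not overlap, and the difference was 0.20 (SE 0.08, unadjusted p = 0.0325), a 1.15-fold higher level. Its other probe sets gave 0.13 and, at levels of 1.32 to 2.83, −0.83, so that the direction for Col1a2 turned with the probe set. Without fluoxetine replicate 1 the p for Col1a2 was 0.0738, without fluoxetine replicate 2 it was 0.209, and without untreated replicate 1 it was 0.0857. Col1a1, whose chain pairs with that of Col1a2 in type I collagen, read 5.47 and 5.43 against 5.67 and 5.47 untreated, a difference of −0.12 (SE 0.14, unadjusted p = 0.398). The partner chains of type I collagen thus had differences of opposite sign, and only that of Col1a2 passed the unadjusted threshold. Whether the difference itself differed between Col1a1 and Col1a2 was not tested.

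Col3a1, the type III collagen chain of loose connective tissue, read 5.16 and 5.32 with fluoxetine, and its untreated arrays were the lowest and the highest of the 4, at 4.80 and 5.62. Its difference was 0.03 (SE 0.26, unadjusted p = 0.919), and it moved to −0.38 without untreated replicate 1 and to 0.44 without untreated replicate 2. The sign for Col3a1 therefore turned with the untreated array that was left out. Col5a1, a type V chain that starts type I fibrils, read 6.78 and 7.10 against 7.18 and 6.68 untreated, with the untreated arrays again outermost and a difference of 0.01 (SE 0.19, unadjusted p = 0.965). Col5a2, its partner chain, read 5.60 and 5.78 against 5.96 and 6.02 untreated. The groups of Col5a2 did not overlap, and the difference of −0.30 (SE 0.13) had an unadjusted p of 0.0571. Col11a1, a type XI chain of cartilage fibrils, read 4.18 and 4.49 against 4.17 and 4.29 untreated, a difference of 0.10 (SE 0.17, unadjusted p = 0.567) with interleaved groups. Col3a1 and Col5a2 lie next to each other in the genome with 0 protein-coding genes between them, and their differences were 0.03 and −0.30.

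Basement membrane collagens were represented by 8 genes, of which none passed the unadjusted threshold in either direction. Their median difference was −0.24, and 1 of the 8 had a difference above 0, where 7729 of all 18193 genes did. In 3 of the 8 both fluoxetine arrays lay below both untreated arrays, where 22.3% of all genes did. Fluoxetine replicate 1 was the lowest array for 6 of the 8 genes (30.9% of all genes), and without it the median difference was −0.042. Col4a1 and Col4a2, the chains of the type IV collagen found in nearly all basement membranes and the 2 genes of this group above the median level, did not separate the groups. Col4a1 read 7.90 and 8.05 with fluoxetine and 7.88 and 8.01 untreated, a difference of 0.03 (SE 0.10, unadjusted p = 0.761). Col4a2 read 7.68 and 8.04 against 7.90 and 8.04, a difference of −0.11 (SE 0.13, unadjusted p = 0.425). For Col4a2 the low array was fluoxetine replicate 1, and the other fluoxetine array equalled the higher untreated array to 2 decimals.

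The other chains of basement membranes lay below the median level, and none passed the threshold. Col4a3, a type IV chain of restricted tissues such as kidney glomerulus, read 5.15 and 5.09 against 5.58 and 5.30 untreated, a difference of −0.32 (SE 0.15, unadjusted p = 0.0726). Its other probe set, at levels of 2.31 to 2.87, gave 0.38. Col4a6, another restricted type IV chain, read 5.42 and 5.86 against 6.22 and 5.85, a difference of −0.39 (SE 0.20, unadjusted p = 0.0859), while its other probe set gave −0.02. The groups of Col4a3 were apart and those of Col4a6 overlapped. Col15a1, whose product bridges basement membrane and fibrils, read 5.47 and 5.50 against 5.69 and 5.81 untreated, a difference of −0.26 (SE 0.13, unadjusted p = 0.0813). Col18a1, the source of the fragment endostatin, read 7.22 and 7.64 against 7.66 and 7.73 untreated, a difference of −0.27 (SE 0.14, unadjusted p = 0.104). Its second fluoxetine array lay within 0.1 of the untreated arrays, and without fluoxetine replicate 1 the Col18a1 difference was −0.06. Endothelial markers, taken as a list of 9 measured genes, had a median difference of −0.015 with none past the unadjusted threshold, and 10 mural cell markers had 0.05, also with none.

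The 5 chains of type VI collagen, which forms beaded microfibrils near cells, had a median difference of 0.0085. Col6a1 read 8.23 and 8.28 with fluoxetine and 8.01 and 8.11 untreated, a difference of 0.20 (SE 0.08, unadjusted p = 0.0471) and a 1.15-fold higher level on groups that were apart. Col6a2 read 8.51 and 8.45 against 8.33 and 8.34, also apart, with a difference of 0.15 (SE 0.07, unadjusted p = 0.092). Col6a3, the third chain of the classical heterotrimer, read 6.29 and 6.46 against 6.33 and 6.40 untreated, with fluoxetine arrays outside the untreated arrays on both sides and a difference of 0.01 (SE 0.12, unadjusted p = 0.946). Col6a1 and Col6a2, neighbours in the genome with 0 protein-coding genes between them, were the chains above the median level. The p of Col6a1 was 0.126, 0.212 and 0.138 without fluoxetine replicate 1, fluoxetine replicate 2 and untreated replicate 1, and 0.0505 after a further quantile normalization. Col18a1 lies 2 protein-coding genes from Col6a1, and its difference had the opposite sign.

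Fibril-associated collagens, which coat or link fibrils, were represented by 9 genes with a median difference of −0.06. Of the 9, 1 passed the unadjusted threshold, in the lower direction (3.51% of all genes). This gene, Col22a1, a collagen of tissue junctions such as that of muscle and tendon, read 5.77 and 6.05 with fluoxetine and 6.35 and 6.21 untreated. The Col22a1 groups were apart, and the difference was −0.37 (SE 0.14, unadjusted p = 0.0377), a 1.29-fold lower level. Its other probe sets gave −0.15 and −0.03. Without 1 array the p of Col22a1 was 0.248 (fluoxetine replicate 1 left out), 0.142 (untreated replicate 1) or 0.0504 (untreated replicate 2), and without fluoxetine replicate 1 the difference was −0.22. Col12a1, which links fibrils in dense connective tissue, read 7.15 and 7.44 against 7.37 and 7.36 untreated, a difference of −0.07 (SE 0.12, unadjusted p = 0.585). The 4 probe sets of Col12a1 ranged from −0.29 (mean level 3.48) to 0.42 (mean level 4.55).

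Network-forming and anchoring collagens were represented by 5 genes and held the largest difference of the set in each direction, both at levels below the median of all genes. Col8a2, a chain of the short-chain network of Descemet's membrane and vessel walls, read 5.97 and 5.76 with fluoxetine and 4.81 and 5.65 untreated. The groups of Col8a2 were apart, but untreated replicate 2 lay just below fluoxetine replicate 2, and untreated replicate 1 lay far below both. The Col8a2 difference was 0.63 (SE 0.26, unadjusted p = 0.0455), a 1.55-fold higher level. It was 0.21 without untreated replicate 1 (unadjusted p = 0.244) and 1.05 without untreated replicate 2, and its p was 0.175 and 0.0723 without fluoxetine replicate 1 and 2. Col8a1, the other type VIII chain, read 6.96 and 6.49 against 6.67 and 6.53 untreated, a difference of 0.12 (SE 0.17, unadjusted p = 0.498), with the fluoxetine arrays outermost.

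Col10a1, the type X collagen of hypertrophic cartilage, read 4.66 and 4.71 with fluoxetine and 5.31 and 5.15 untreated. Both fluoxetine arrays were lower than both untreated arrays by more than the spread within either group. The difference was −0.54 (SE 0.15, unadjusted p = 0.00706, adjusted p = 0.696 by limma), a 1.46-fold lower level. With each array left out in turn the Col10a1 difference ran from −0.62 to −0.46, with p between 0.0116 and 0.0414. Col10a1 was thus the gene of the set with the smallest p, and it rests on 1 probe set well below the median level.

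Membrane-spanning collagens were represented by 4 genes. Col13a1, a collagen of cell-matrix contacts and of the neuromuscular junction, read 5.42 and 5.62 with fluoxetine and 6.17 and 5.87 untreated. Its groups were apart, and its single probe set gave a difference of −0.50 (SE 0.16, unadjusted p = 0.0146), a 1.41-fold lower level. The Col13a1 p was 0.0968 without fluoxetine replicate 1 and 0.0826 without untreated replicate 1. Col25a1, which is made by neurons and was found in amyloid plaques, read 9.63 and 9.52 against 9.40 and 9.66 untreated, a difference of 0.04 (SE 0.09, unadjusted p = 0.649). Col25a1 was above the median level, its untreated arrays were outermost, and its other probe set gave −0.27.

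The small leucine-rich proteoglycans, with 5 genes, had a median difference of 0.19. All 5 differences were above 0, where 7729 of all 18193 genes had a difference above 0. Decorin (Dcn) passed the unadjusted threshold as higher (3.45% of all genes), and none was lower by it (3.51%). Ogn, Fmod, Bgn and Lum did not pass it. The median of these 5 was 0.088 without untreated replicate 1 and 0.294 without untreated replicate 2. Dcn, whose product binds type I collagen and transforming growth factor beta, read 8.34 and 8.35 with fluoxetine and 8.05 and 8.18 untreated. The fluoxetine arrays of Dcn nearly coincided and lay above both untreated arrays, with a difference of 0.23 (SE 0.08, unadjusted p = 0.0258) and a 1.17-fold higher level. Its other probe set, at 4.41 to 4.58, gave 0.03. The p for Dcn was 0.101, 0.126 and 0.0886 without fluoxetine replicate 1, fluoxetine replicate 2 and untreated replicate 1.

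Osteoglycin (Ogn), a proteoglycan of meninges and bone, read 7.74 and 8.05 with fluoxetine and 7.29 and 7.73 untreated. The groups of Ogn touched, with fluoxetine replicate 1 and untreated replicate 2 almost level, and the difference was 0.39 (SE 0.17, unadjusted p = 0.0522). Its other probe set read 7.60 and 7.81 against 7.19 and 7.09 untreated, a difference of 0.56 (SE 0.11). Read by the mean of its probe sets Ogn had an unadjusted p of 0.00303, and without untreated replicate 1 its difference on the brighter probe set was 0.17. Fibromodulin (Fmod), which shapes fibrils, read 8.45 and 8.59 against 8.23 and 8.43 untreated, a difference of 0.19 (SE 0.10, unadjusted p = 0.0915), and its 6 probe sets ranged from 0.02 to 0.36. Biglycan (Bgn), the closest relative of decorin, read 8.06 and 8.13 against 7.89 and 8.10, a difference of 0.09 (SE 0.10, unadjusted p = 0.375) that became −0.01 without untreated replicate 1. Lumican (Lum), a proteoglycan of cornea and connective tissue, read 7.31 and 7.03 against 7.08 and 7.15 untreated, a difference of 0.06 (SE 0.12, unadjusted p = 0.657) with the fluoxetine arrays outermost. Dcn and Lum are neighbours with 0 protein-coding genes between them.

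Among the meningeal carriers and retinoid genes none of 5 passed the unadjusted threshold, and the median difference was 0.07, or −0.06 without untreated replicate 1. Aldh1a2, the enzyme that makes retinoic acid in the meninges, read 6.96 and 7.21 with fluoxetine and 6.97 and 7.03 untreated, a difference of 0.09 (SE 0.12, unadjusted p = 0.494). Crabp2, which carries retinoic acid to the nucleus, read 6.52 and 6.64 against 6.37 and 6.64 untreated, a difference of 0.08 (SE 0.13, unadjusted p = 0.589). Both retinoid genes had overlapping groups. Igfbp2, a secreted binding protein for insulin-like growth factors, read 9.95 and 10.07 against 9.85 and 10.05 untreated, a difference of 0.07 (SE 0.08, unadjusted p = 0.441). Slc6a13, a carrier of GABA and taurine in meninges and liver, read 7.32 and 7.43 against 7.52 and 7.52 untreated, a difference of −0.15 (SE 0.09, unadjusted p = 0.159). Slc6a13 was the only gene of these 5 with both fluoxetine arrays below the untreated arrays, where 22.3% of all genes had this order. Slc22a6, an organic anion carrier, read 7.46 and 7.52 against 7.27 and 7.74 untreated, a difference of −0.01 (SE 0.15, unadjusted p = 0.929), which became 0.02 when each array's median was subtracted.

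The remaining 20 genes were all collagens, with levels from 1.62 to 8.78, differences from −0.22 to 0.18 and a smallest unadjusted p of 0.134. Of the 52 genes, 7 had a difference of 0.3 or more in size, against 6.99% of all genes, with 2 higher (Col8a2 and Ogn) and 5 lower (Col10a1, Col13a1, Col4a6, Col22a1 and Col4a3). Col5a2 lay just under this size, at −0.2997.

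The direction of the differences went with level, in the set and over all genes. Of the 11 genes above the median level, 10 had a difference above 0, where 4722 of all 9096 genes above the median did. The median difference of the 11 was 0.09, against 0.0031 for all genes above the median. Both fluoxetine arrays stood above the untreated arrays for 6 of these 11 (21.8% of all genes above the median) and below them for 0 (16.9%). Of the 41 genes at or below the median level, 18 had a difference above 0, where 3007 of all 9097 such genes did. The median difference of the 41 was −0.055, against −0.069 for all genes at or below the median. Fluoxetine stood apart and higher for 5 of these 41 (9.13% of all such genes) and lower for 13 (27.8%). The lower collagens of the set were therefore found among dim probe sets, where lower values with fluoxetine were also the more frequent kind over all genes.

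**Figure D2:**
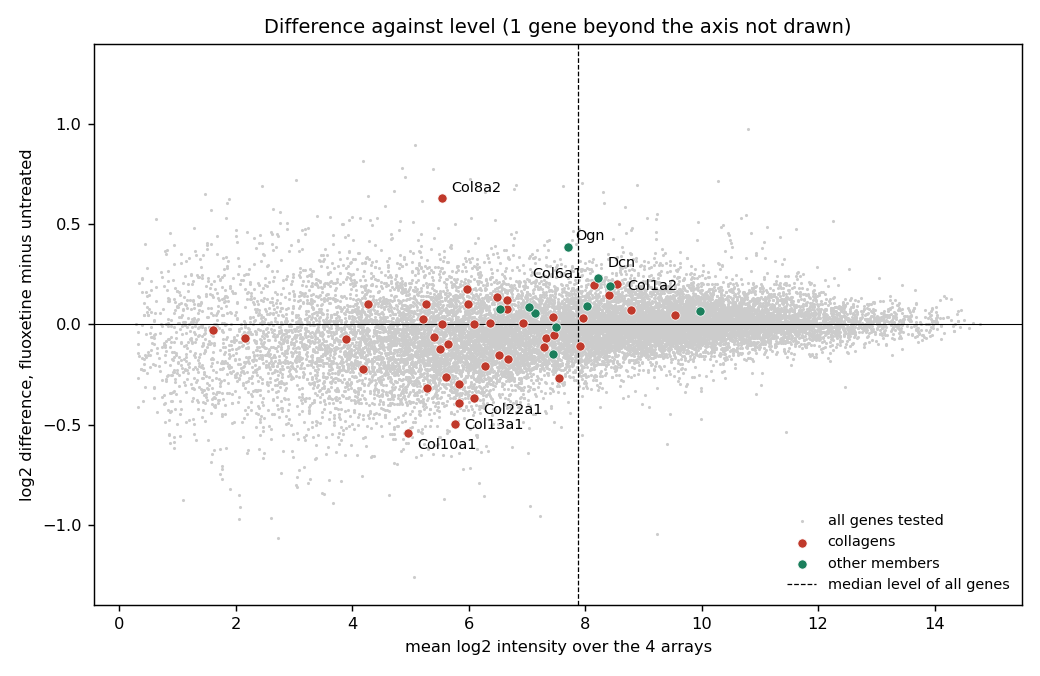
Difference between fluoxetine and untreated (log2, vertical axis) against the mean log2 intensity over the 4 arrays (horizontal axis), with all genes in grey, collagens of the set in red, its other genes in green and the median level as a dashed line. The Col10a1, Col13a1 and Col22a1 points lie below 0 and left of the median level of 7.87, and Col1a2, Col6a1 and Dcn lie above 0 and right of it. Ttr, a choroid plexus gene with a difference of 2.08, lies beyond the axis and is not drawn.

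The array most often lowest among the brighter genes was untreated replicate 1. It was the lowest of the 4 arrays for 10 of the 11 genes above the median level (90.9%), where it was lowest for 45.4% of all genes above the median. It was lowest for 21 of the 52 genes (40.4%), against 31.0% of all genes. Fluoxetine replicate 1 was lowest for 17 of the 52, fluoxetine replicate 2 for 10 and untreated replicate 2 for 4. The median difference of the 52 genes, 0.0056 with all 4 arrays, was −0.0337 without untreated replicate 1 and −0.0024 without untreated replicate 2. It was 0.0481 without fluoxetine replicate 1 and −0.0446 without fluoxetine replicate 2. In these fits the group left with 1 array was taken to vary like the other.

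**Figure D3:**
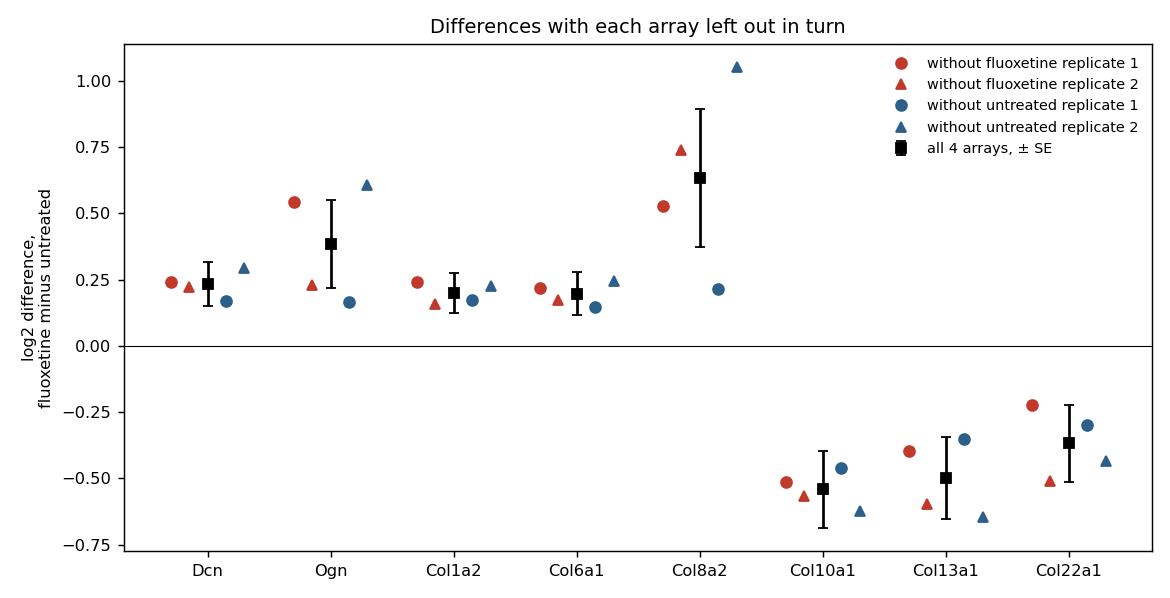
Difference between fluoxetine and untreated (log2) for the 7 genes at an unadjusted p below 0.05 and Ogn, over all 4 arrays (black squares, bars ± SE) and with each array left out in turn (colours and symbols mark the array left out). Col10a1 stays between −0.62 and −0.46, and Col8a2 moves between 0.21 without untreated replicate 1 and 1.05 without untreated replicate 2.

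Of the 32 genes with several probe sets, 15 had probe sets whose differences took both signs, 10 had all differences above 0 and 7 had all below 0. All 6 probe sets of Fmod, all 3 of Bgn and both of Ogn, Dcn and Col6a2 were above 0, and all 3 of Col22a1 and both of Col1a1, Col5a2 and Col18a1 were below 0. Col1a2, Col4a3, Col12a1 and Col25a1 were among the 15 with both signs. Dim probe sets were counted too, such as that of Col1a2 at 1.32 to 2.83. Of the 7 genes past the unadjusted threshold, Col6a1, Col8a2, Col10a1 and Col13a1 rest on a single probe set.

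**Figure D4:**
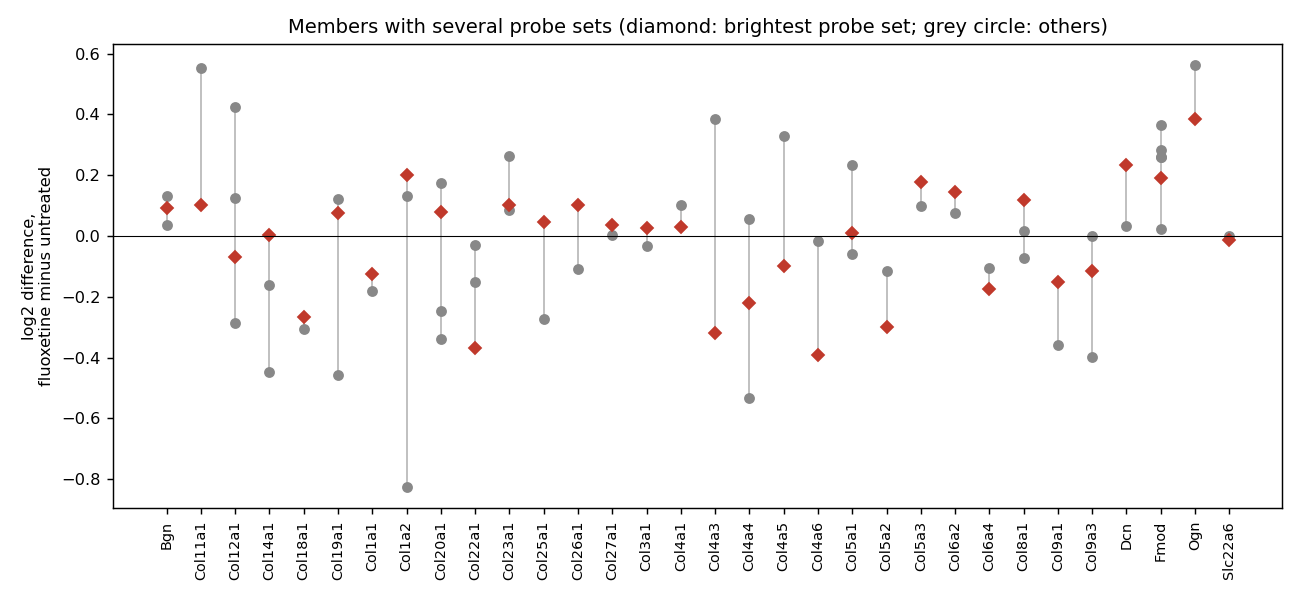
Difference between fluoxetine and untreated (log2) for every probe set of the genes with several probe sets, with the probe set that represents the gene marked. The Fmod points all lie between 0.02 and 0.36, and those of Col1a2 run from −0.83 to 0.20.

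Genes that modify and fold collagen chains were read as a list of 29 measured genes of 34, with a median difference of −0.012. At an unadjusted p below 0.05, 2 were higher (3.45% of all genes) and none lower (3.51%). P4ha1, the catalytic subunit of the prolyl hydroxylase that stabilises the collagen helix, read 8.95 and 8.93 with fluoxetine and 8.53 and 8.64 untreated. The fluoxetine arrays of P4ha1 lay clear of the untreated arrays, with a difference of 0.35 (SE 0.07, unadjusted p = 0.00183), a 1.28-fold higher level, and 0.61 on its other probe set. With each array left out in turn the P4ha1 p was between 0.00188 and 0.0214. Serpinh1, the collagen chaperone also called Hsp47, read 8.18 and 7.96 against 7.67 and 7.83 untreated, a difference of 0.32 (SE 0.11, unadjusted p = 0.0221). Serpinh1 was 0.21 without fluoxetine replicate 1 (unadjusted p = 0.187) and 0.24 without untreated replicate 1 (unadjusted p = 0.103).

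Collagen receptors were measured for 11 genes of 12, with a median difference of 0.05. At the unadjusted threshold 1 was higher (3.45% of all genes) and 2 were lower (3.51%). Itgb1, the beta subunit shared by collagen-binding integrins, read 9.13 and 9.11 against 8.92 and 8.97 untreated, a difference of 0.17 (SE 0.07, unadjusted p = 0.0335), but its 6 probe sets ranged from −0.29 to 0.17. Itga2, an alpha subunit that binds collagen, read 6.11 and 6.24 against 6.45 and 6.49 untreated, a difference of −0.29 (SE 0.12, unadjusted p = 0.0427). Lair1, an inhibitory collagen receptor of leukocytes, read 6.60 and 6.60 against 6.82 and 7.27, a difference of −0.44 (SE 0.16, unadjusted p = 0.026) that was −0.22 without untreated replicate 2, and its 3 probe sets ranged from −0.44 to 0.24. Itga2 lost the threshold whichever array was left out, with an unadjusted p of 0.0712 to 0.221. Itgb1 lost it with any array but untreated replicate 2 left out, with an unadjusted p of 0.0874 to 0.167. Lair1 lost it with any array but untreated replicate 1 left out, with an unadjusted p of 0.0868 to 0.129.

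Other matrix proteins and their regulators were measured for 35 genes of 37, with a median difference of −0.0081. By the same rule 1 was higher (3.45% of all genes) and 2 were lower (3.51%). Timp3, an inhibitor of matrix proteases, read 9.92 and 10.01 against 9.78 and 9.84 untreated, a difference of 0.15 (SE 0.06, unadjusted p = 0.0408). Fbn2, a fibrillin of developing microfibrils, read 5.25 and 5.29 against 5.78 and 5.50 untreated, a difference of −0.37 (SE 0.15, unadjusted p = 0.0427). Lama1, a laminin chain of the pial basement membrane, read 5.0 and 5.05 against 5.26 and 5.57, a difference of −0.39 (SE 0.16, unadjusted p = 0.0394). Groups were apart for these 3 genes, and each lost the threshold in 3 of the 4 fits that left out an array. Fbn2 was −0.23 without untreated replicate 1 and Lama1 was −0.24 without untreated replicate 2.

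The set was read beside a list of 20 markers of meningeal fibroblasts. Of these, 10 belong to the set, so the list is no independent check of the set's label. All 20 were measured, 8 of them above the median level, and the lowest was Col3a1 at a mean of 5.22. Of the 20, 5 were higher at an unadjusted p below 0.05 (3.45% of all genes) and none lower (3.51%), with a median difference of 0.11. Of these 5, Col1a2 and Dcn belong to the set and are counted above, and 3 do not belong to it. The summed linear intensity of all 20 markers was 25552 and 26388 with fluoxetine and 22313 and 25183 untreated. Most of it came from Ptgds, a prostaglandin synthase. All 9 measured markers of cortical neurons were above the median level, at 9.48 to 14.45. Of the 8 measured striatal markers 4 were above it too, so these levels alone do not tell cortex from striatum. In bulk tissue fewer cells of a type and less RNA per cell cannot be told apart.

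The 10 markers outside the set had a median difference of 0.19, with 9 above 0, where 7729 of all 18193 genes were above 0. Untreated replicate 1 was the lowest array for 9 of the 10, against 31.0% of all genes. Slc47a1, an organic cation carrier, read 6.49 and 6.27 with fluoxetine and 5.49 and 5.83 untreated. Its groups were clearly apart, with a difference of 0.73 (SE 0.16, unadjusted p = 0.00255), a 1.65-fold higher level, and p between 0.0019 and 0.0262 with each array left out in turn. Foxc1, a transcription factor needed for meningeal development, read 7.75 and 7.58 against 7.35 and 7.39 untreated, a difference of 0.30 (SE 0.10, unadjusted p = 0.0196), while its other probe set gave −0.06. Foxd1, another forkhead factor, read 5.80 and 5.77 against 5.41 and 5.54, a difference of 0.31 (SE 0.13, unadjusted p = 0.0492). Foxc1 had a p of 0.168 without fluoxetine replicate 1 and 0.056 without untreated replicate 1, and Foxd1 kept the threshold only without untreated replicate 2. How much meningeal tissue each punch held was not measured, and its part in the differences of the set was not tested.

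**Figure D5:**
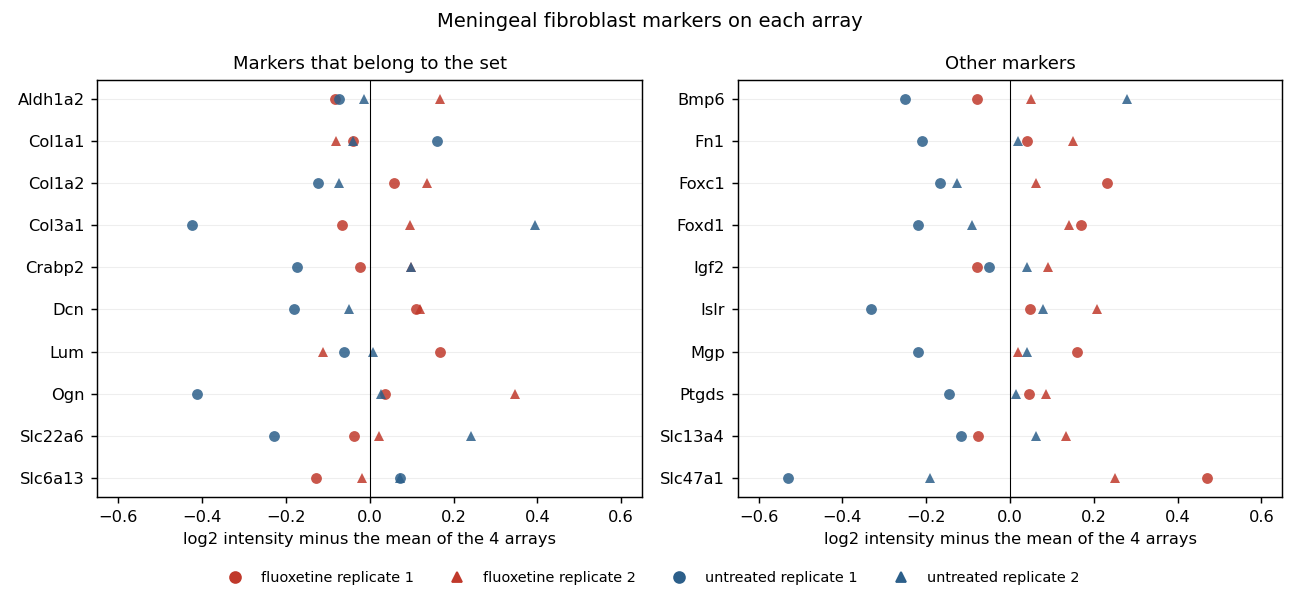
Log2 intensity of 20 meningeal fibroblast markers on each array, minus the gene's mean over the 4 arrays, for the 10 that belong to the set (left) and the 10 that do not (right); red marks fluoxetine, blue untreated, circles replicate 1 and triangles replicate 2. The blue circles of untreated replicate 1 are leftmost for 9 of the 10 genes at right and for 15 of all 20.

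Markers of neighbouring tissue also differed between arrays. All 8 measured striatal markers and 8 of the 9 measured myelin markers were highest on untreated replicate 2, as were 6571 of all 18193 genes. The median difference was −0.53 for the striatal, −0.12 for the myelin and −0.13 for the 10 choroid plexus and ependymal markers. At an unadjusted p below 0.05 the striatal gene Syndig1l, the myelin genes Mag and Mal and the ependymal genes Ccdc153 and Tmem212 were lower (3.51% of all genes). None of these lists held a higher gene (3.45%). Ttr, the main choroid plexus transcript, read 11.71 and 8.09 with fluoxetine and 6.67 and 8.97 untreated, so that neither group was uniform. The 7 measured microglial markers had a median difference of −0.034, and the 4 measured blood markers had −0.26. All 4 blood markers were lowest on fluoxetine replicate 1, as were 30.9% of all genes. The part of these tissue differences in the results for collagens was not tested.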

How the data were processed

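The authors deposited a table of log2 intensities, 1 row a probe set. RMA, affy and limma are the tools listed per the submitters' processing notes; their versions and background settings are not given in the sources used here. Of the table's 45101 probe sets, 64 were array controls, 932 had several symbols in the platform annotation, 9160 had no row or no symbol in it, and 34945 with 1 symbol were used. The set's 52 symbols all matched RefSeq (GRCm38.p6) by Entrez number.

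The brightest probe set on average over the 4 arrays stood for a gene, giving 18193 genes with no filter on low values. Fluoxetine was compared with untreated by limma (version 3.58.1, R version 4.3.3), with moderated variances that follow a trend on intensity. Tests were two-sided, and p-values were adjusted over all genes by Benjamini and Hochberg's method, with a threshold of 0.05. The fit had 2 residual and 5.15 prior degrees of freedom, so each variance leaned mostly on other genes of like intensity. The code was tested on simulated data. The number of arrays limits the precision.

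The genes and gene lists were chosen with earlier results of these data known, so no list was tested and no p was adjusted over a list. Values on all arrays are given for genes at an unadjusted p below 0.05, with a difference of 0.3 or more in size, or in a fixed list of the main fibrillar, basement membrane, type VI, proteoglycan and meningeal genes; the other genes are given by range. Of the collagen processing, receptor and matrix lists, genes at an unadjusted p below 0.05 are named. Groups came from the treatment label, and replicates were numbered by accession order. Alternatives were a further quantile normalization, subtraction of array medians, a filter at the median level, other choices of probe set, a fit without the trend, and leaving out each array.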

Additional observations from a re-analysis of the deposited data

How the results depend on the processing

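With 2 arrays in each group no collagen or meningeal gene passed the adjusted threshold under any alternative run. Over all genes 0 passed by limma (1266 at an unadjusted p below 0.05), and 1 passed with the most variable probe set of each gene, 1 with every probe set tested on its own, and 0 to 1 with each array left out (1 without untreated replicate 1). The unadjusted count was 369 without fluoxetine replicate 1. The count of genes of the set higher at an unadjusted p below 0.05 was 4, and that of lower genes was 3. With every probe set on its own, 7 of 102 probe sets were higher and 5 lower, where 3301 of all 34945 probe sets passed in either direction. With the median-level filter, which leaves 11 of the 52 genes, the lower count was 0, where 731 of all 9096 genes passed in either direction. Without the intensity trend the lower count was 6, where 1305 of all 18193 genes passed in either direction. Both counts changed with the array left out. The median difference of 0.0056 became 0.0932 with the median-level filter, −0.0418 with the most variable probe set, and −0.0446 to 0.0481 with each array left out. Col1a2 turned to −0.165 with the mean of its probe sets and to −0.8265 with the most variable one, and Itgb1 to −0.0254 and −0.2908; the probe sets of these genes differ in sign. Col10a1 stayed below an unadjusted p of 0.05 in every setting it was tested in. Of the 7 genes past that threshold, 6 stayed past it after a further quantile normalization and 7 with array medians subtracted. With the mean of probe sets 4 were past it, and with the most variable probe set 5 were. Those 5 include Col1a2, which was then past the threshold in the opposite direction, as lower with fluoxetine. Among all genes at an unadjusted p below 0.05, 49.6% were higher, 34.0% after a further quantile normalization and 66.2% with array medians subtracted. Of the 32 genes given with all values, 17 had another sign in at least 1 of the 11 settings, mostly those with differences near 0. No paired analysis was possible because the labels give the arrays no shared replicate numbers. Dim probe sets limit the reading of the lower collagens.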

Other observations

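A pair of gene lists close to the set was added after values had been seen. The first held the 9 measured small leucine-rich proteoglycan genes that do not belong to the set. Their median difference was −0.0099, with 1 gene higher and none lower at an unadjusted p below 0.05, where 3.45% of all genes were higher. That gene, asporin (Aspn), read 4.55 and 4.25 with fluoxetine and 3.87 and 3.87 untreated, at a level well below the median of all genes. The Aspn difference was 0.53 (SE 0.17, unadjusted p = 0.0159), and its other probe set gave 0.13.

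The second held genes that take up, make, break down or sense retinoids, of which 10 of 11 were measured. Their median difference was −0.098, and at the same threshold 2 were lower (3.51% of all genes) and none higher (3.45%). Stra6, the membrane receptor that takes up retinol from its plasma carrier, read 6.21 and 6.23 with fluoxetine and 6.64 and 6.64 untreated. The Stra6 groups were apart, with a difference of −0.42 (SE 0.11, unadjusted p = 0.00627), a 1.34-fold lower level. Aldh1a3, a retinaldehyde dehydrogenase, had a difference of −0.37 (SE 0.15, unadjusted p = 0.038), and with its most variable probe set the difference was −0.0023. Neither gene passed adjustment over all genes by limma.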
